A study of Mus musculus with 6 samples.

Results

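The comparison described here sets mouse embryonic stem (ES) cells whose METTL3 carries the substitution D395A against unmodified cells of the same line. Its members are 4 of the 6 libraries of the series, 2 labelled WT and 2 labelled as METTL3 D395A mutants, and all 24984 gene rows of their count tables, of which 15663 passed the filter on low counts and were tested. All libraries came from E14TG2a, a male feeder-independent mouse ES cell line, cultured in the serum-free medium N2B27. The D395A allele was integrated with CRISPR/Cas9 by homology-mediated end joining, the WT cells are listed without an edit, and the remaining 2 libraries, from a METTL3 knockout line, entered only the estimate of the spread between libraries. The labels name no separate clones and do not give the cultures behind the replicates, so the p-values speak only of the spread among libraries, which may be technical. Genotype and the history of a single edited line cannot be told apart in this design. Ribosomal RNA was removed from total RNA before stranded library preparation, and the counts per gene totalled 40476809 and 36136543 in WT replicates 1 and 2 and 22859491 and 35784699 in D395A replicates 1 and 2.

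METTL3 is the catalytic subunit of the nuclear complex that writes N6-methyladenosine (m6A) on messenger and noncoding RNA, with METTL14 as its structural partner and WTAP and further subunits as scaffold. The mark is read by YTH-domain proteins, which promote decay, export or translation of the marked RNA, and it is known in ES cells for shortening the life of transcripts that encode pluripotency and developmental regulators. The aspartate replaced in D395A opens the DPPW motif, the catalytic motif through which the enzyme holds the methyl donor S-adenosylmethionine, and its replacement by alanine is used to remove methyltransferase activity while the protein is still made. m6A itself was not measured in these tables.

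The reference sequence of codons 386 to 407 of Mettl3 is shown because it holds the altered codon. It lies on the minus strand at chr14:52297554-52297619 (GRCm38), in exon 6 of 11, and the capitals mark the 4 codons of the catalytic motif, the altered one at their start. The altered codon reads GAC in the reference.
Mettl3 codons 386 to 407: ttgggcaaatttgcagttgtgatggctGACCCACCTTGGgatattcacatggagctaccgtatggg
Counts per gene cannot show the substitution, so they do not check this label. Mettl3 itself (chromosome 14, 52294841 to 52305128, minus strand) stood at 28.5 and 31.6 CPM in WT and 21.1 and 23.4 CPM in D395A, where CPM is the count relative to library size after trimmed-mean (TMM) scaling, as edgeR gives it, and both mutant libraries lay below both WT libraries. It fell by 0.43 ± 0.10 on the log2 scale (± is the standard error of the fit here and for all fold changes below, adjusted p = 0.0022), and 18.4% of its exon bases overlap Tox4 on the opposite strand.

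Several properties of the libraries stood beside the gene results. The D395A libraries differed from each other more than the WT libraries did: 182 genes were over 2-fold apart in D395A, 180 of them higher in replicate 1, against 8 genes in WT (0.5 CPM added). Of the 182 genes, 123 were called, a share near the 70.3% called among all genes tested. Among the 182, chosen here after its values were seen, the synaptic adhesion gene Nrxn3 stood at 0 and 0 CPM in WT. In D395A it stood at 4.64 and 0.0277 CPM. Replicate 1 alone was high for this gene, so its part in a count is given below where the count changed more than 1.5-fold without it. Smaller changes without that library are mostly not given. The rises among retinoic acid and collagen genes were among counts that also fell without it. Reads on the strand opposite to a strongly expressed gene were also more frequent in the mutant. In 72 pairs where a weakly counted gene overlaps a strong gene on the other strand, the weak genes summed to 0.607% and 0.611% of their partners in WT and to 3.18% and 2.43% in D395A, and this share was higher in both D395A libraries in 57 pairs and lower in both in 4. No strand setting of the counting is given in the sources used here. Genes with exons inside an opposite-strand gene are uncertain, Nrxn3 among them. For the lists below, "free" gives the rises and falls among the members that have no exon inside an opposite-strand gene.

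Medians also differed by chromosome. Over all genes tested the median log2 fold change was 0.02, but it was -0.35 on chromosome 8, where 52.0% of 812 genes were lower, and -0.49 on chromosome 11, where 58.1% of 1302 genes were lower. In windows of 20 Mb the medians of chromosome 11 ran from -0.45 to -0.58 up to 120 Mb and stood at -0.14 beyond it, and those of chromosome 8 ran from -0.26 to -0.56. Chromosome 19 had a median of 0.28, and 7 of the 8 genes tested on chromosome Y were lower. The 13362 genes elsewhere than on chromosomes 8, 11 and Y had a median of 0.10. Falls of genes on chromosomes 8, 11 and Y therefore stand on that shift, and whether the shift accounts for them was not tested.

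**Figure D1:**
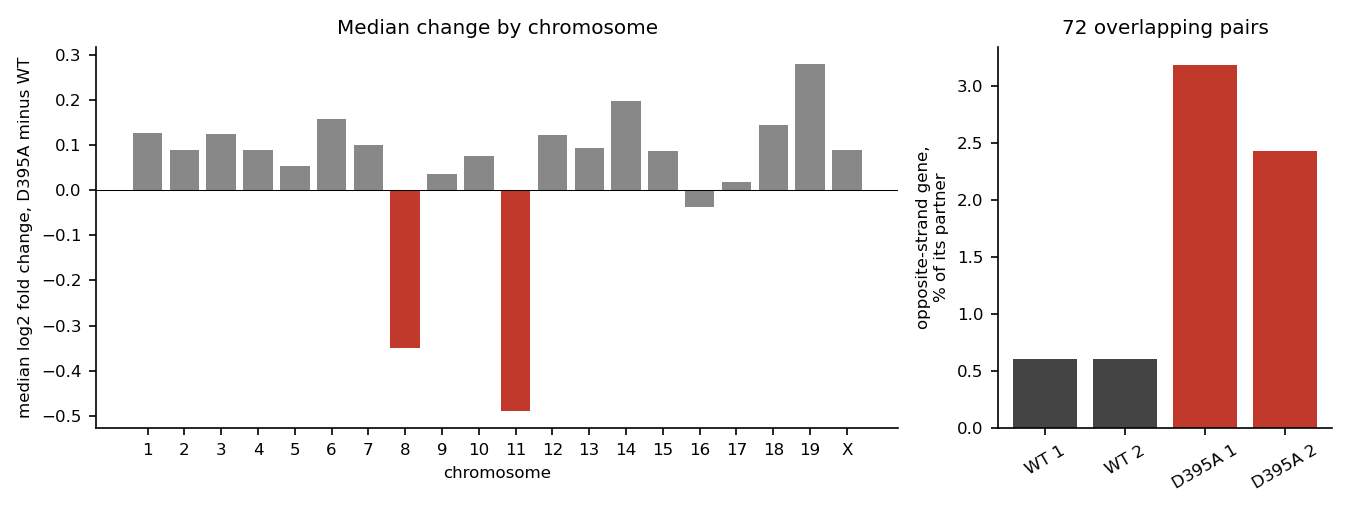
Left, median fitted log2 fold change (D395A minus WT) of the genes tested on each chromosome with at least 100 genes; chromosomes 8 and 11, in red, sit at -0.35 and -0.49 and the others between -0.04 and 0.28. Right, summed count of the weak gene as a percent of its opposite-strand partner over 72 overlapping pairs, in each library; both D395A libraries (3.18% and 2.43%) stand above both WT libraries (0.607% and 0.611%).

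The labelled cell type was checked with marker lists. All 9 ES cell markers were above 0.5 CPM, and their summed level was 4129.8 and 4184 CPM in WT and 1937 and 2003 CPM in D395A. Fibroblast or feeder markers summed to 28.3 and 28.2 CPM in WT and 19.3 and 17.1 CPM in D395A. Most of the WT sum was Pdgfrb (22.3 and 22.2 CPM), which fell, as did Col1a1 and Thy1. Col3a1, Dcn, Acta2 and Twist2 were called higher, Twist2 with counts in D395A replicate 1 alone. Extraembryonic endoderm markers summed to 9.39 and 8.49 CPM in WT and 4.05 and 3.19 CPM in D395A. Trophoblast markers summed to 0.369 and 0.331 CPM in WT and 4.22 and 4.16 CPM in D395A, with 2 of 6 at 0 in all 4 libraries. Most of the D395A sum was Cdx2 (3.11 and 2.72 CPM). Neural markers summed to 90.8 and 93.9 CPM in WT and 80.6 and 73.3 CPM in D395A. Blood and endothelial markers went from 283 and 283 CPM to 36.7 and 45.0 CPM, nearly all of it Pecam1, which ES cells express. In bulk RNA, fewer cells of a type and less RNA per cell cannot be told apart.

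Transcript levels differed widely between mutant and unmodified cells. Of the 15663 genes tested with edgeR's quasi-likelihood test (Benjamini-Hochberg adjusted p under 0.05, here "called"), 11011 were called (70.3%), 5687 higher in D395A and 5324 lower. That is 36.3% of genes tested higher and 34.0% lower, the background against which each list is read. A measured list member is one that passed the filter on low counts. Members near 0 in 1 group passed only through a group where they were higher, so one-sided counts in such lists are partly set by the filter. At least 2-fold changes were called for 2660 genes higher (17.0%) and 1885 lower (12%), at least 4-fold changes for 1391 (8.88%) and 872 (5.57%), and at least 16-fold changes for 525 (3.35%) and 228 (1.46%). The median absolute log2 fold change was 0.60. Both D395A libraries lay above both WT libraries in 6848 genes (43.7%) and below both in 6510 (41.6%). Groups that do not overlap are thus common among all genes tested, which holds for each such remark below. Among 9874 genes with no opposite-strand gene over their exons, 3409 (34.5%) were higher and 3531 (35.8%) lower, and the 16-fold changes numbered 236 and 171. Among 5610 genes with exons inside an opposite-strand gene, 2216 (39.5%) were higher and 1748 (31.2%) lower, with 277 and 50 changes of at least 16-fold. Without D395A replicate 1, 89.6% of the higher and 90.7% of the lower calls remained with their direction, and 75.8% and 79.1% remained whichever of the 4 libraries was left out.

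**Figure D2:**
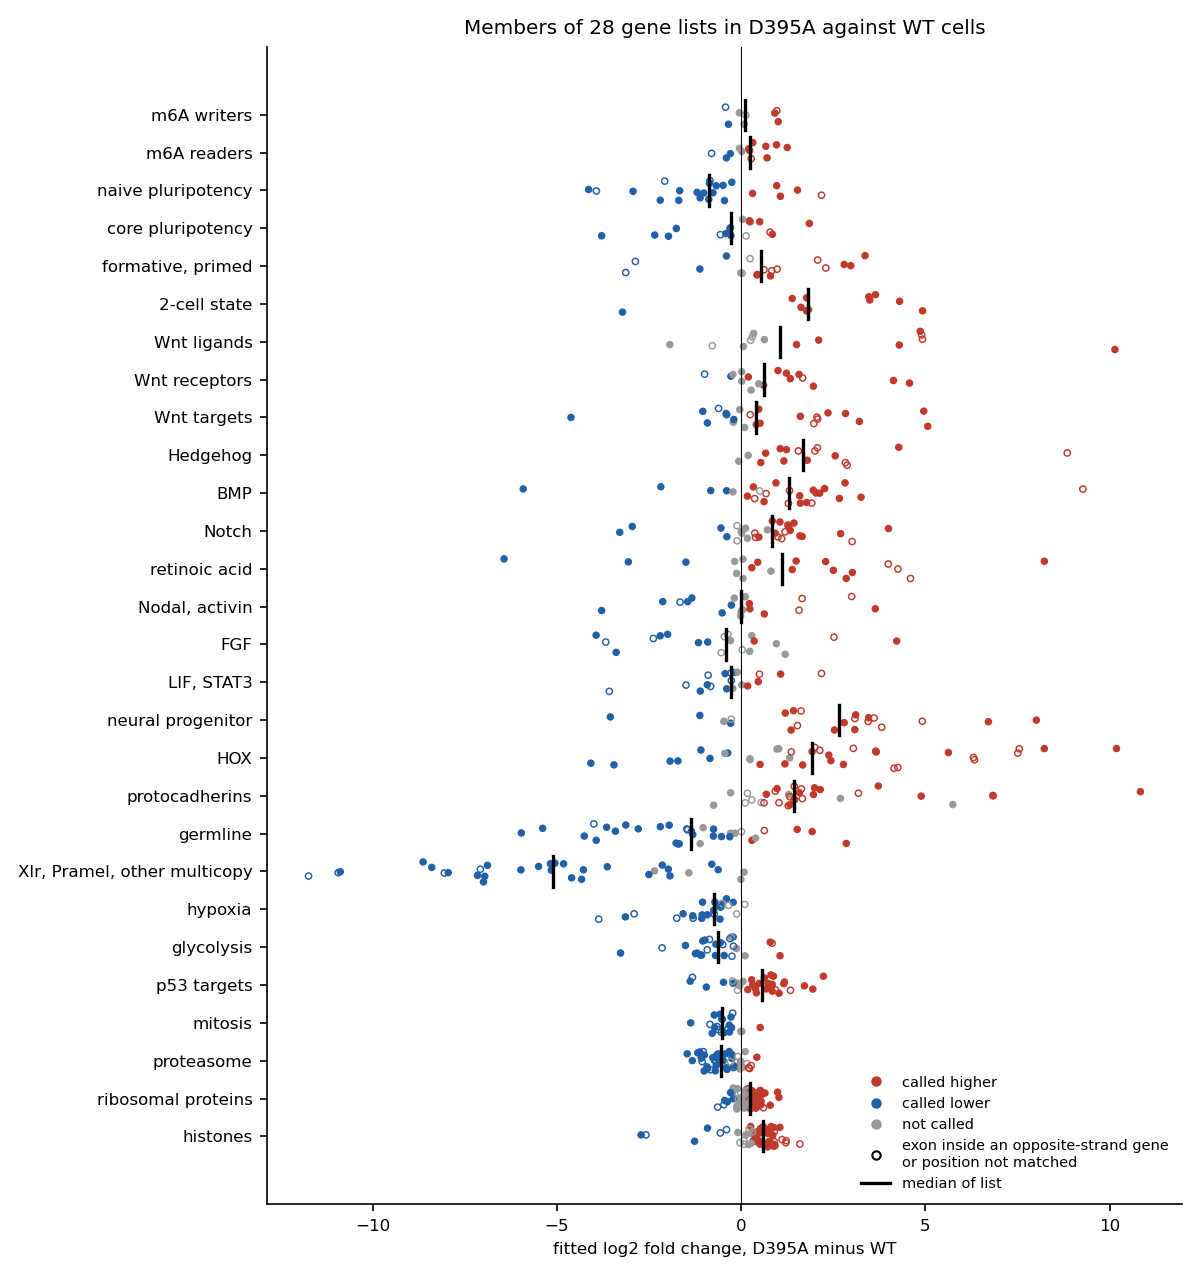
Fitted log2 fold change (D395A minus WT, horizontal axis) of each tested member of 28 gene lists (rows); red points were called higher, blue lower and grey neither, open points have exons inside an opposite-strand gene or no matched position, and black bars are list medians. Hedgehog, BMP, neural progenitor and protocadherin lists lie to the right, with medians of 1.67, 1.30, 2.66 and 1.44, and the multicopy germline list lies to the left, with -5.10.

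Genes of the m6A machinery differed in both directions. Of 8 measured writer subunits 3 rose and 2 fell (free 2 and 1 of 5), shares near the 36.3% and 34.0% of all genes tested. Of 13 readers 8 rose and 3 fell (free 7 and 2 of 11). Wtap, the scaffold that places the writer in nuclear speckles, rose from 95.3 and 95.4 to 187 and 195 CPM (1.0 ± 0.06, adjusted p = 2e-08), and Virma, the large subunit that directs methylation towards the end of transcripts, rose from 97.1 and 94.97 to 174 and 187 CPM (0.91 ± 0.06). Mettl14 fell from 32.0 and 32.5 to 23.3 and 27.2 CPM (-0.35 ± 0.08, adjusted p = 0.0026). In these genes the groups did not overlap. Among readers, Ythdf2, which recruits the deadenylase that shortens marked mRNA, rose from 129.6 and 129.5 to 294 and 322 CPM (1.25 ± 0.07), the nuclear reader Ythdc1 rose by 0.96 ± 0.07, and Ythdf1 and Ythdf3 rose by 0.67 ± 0.06 and 0.70 ± 0.07. Hnrnpc, a binder of RNA opened by the mark, fell from 419.5 and 413 to 304 and 325 CPM. Both demethylase genes lie on the shifted chromosomes: Alkbh5 (chromosome 11) fell from 384 and 398 to 184 and 204 CPM (-1.01 ± 0.07), and Fto (chromosome 8) stood at 113 and 109 CPM in WT and 120.4 and 136 CPM in D395A (adjusted p = 0.02), a call that ended without D395A replicate 2, WT replicate 1 or WT replicate 2. Of 6 other RNA adenosine methyltransferase genes 2 rose and 3 fell (free 0 and 3 of 3), or 1 rose without WT replicate 2, among them Mettl4, which fell from 107 and 112 to 52.4 and 60.6 CPM (-0.95 ± 0.07). Of the genes named in this paragraph, Fto has exons inside an opposite-strand gene.

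Proteins that shape circular RNA, the question named in the series' design text, gave shares near those of all genes: of 31 measured regulators of circular RNA formation and decay, 9 rose and 13 fell (median -0.08, free 5 and 6 of 16). Nova2, a neuronal splicing factor, fell from 34.3 and 35.6 to 3.58 and 2.58 CPM (-3.54 ± 0.13), while its relative Nova1 rose from 3.47 and 2.95 to 12.2 and 11.3 CPM (1.87 ± 0.14). Rbm20, a splicing repressor of muscle genes, rose from 2.02 and 3.22 to 7.24 and 7.99 CPM (1.55 ± 0.19) and the muscleblind gene Mbnl2 rose from 21.0 and 20.3 to 45.3 and 44.0 CPM (1.11 ± 0.07). The groups did not overlap for these 4 genes. Opposite-strand genes overlap exons of Nova2 and Mbnl2.

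Among genes with no opposite-strand gene over their exons, the largest rises were of genes nearly silent in WT. Pcdh18, a delta protocadherin, stood at 0 and 0 CPM in WT and 7.54 and 5.74 CPM in D395A, at least 165-fold higher (against 3 counts over the WT group). Vtn, which encodes the adhesion protein vitronectin and lies on chromosome 11, stood at 0 and 0.0551 CPM in WT and 7.16 and 7.26 CPM in D395A, with 2 counts in WT and a ratio of 278 (exact 95% interval 76.5 to 2302, counting error only). Kctd12b, an X-linked gene, showed a ratio of 264 (72.5 to 2185) and the growth factor gene Ptn, pleiotrophin, one of 227 (88.1 to 834). Neither WT library reached the level of either D395A library for these genes. Foxa2, a forkhead factor of endoderm and floor plate, rose from 0.0738 and 0.138 to 20.2 and 22.5 CPM (7.63 ± 0.32, adjusted p = 5.5e-10). Cyp1b1, a cytochrome P450 that oxidises steroids and retinoids, rose from 0.270 and 0.331 to 35.3 and 36.8 CPM (6.90 ± 0.20), and Fbxl7, an F-box gene, rose from 0.0492 and 0.248 to 16.9 and 19.3 CPM (6.95 ± 0.28, or 6.16 and 8.42 without WT replicates 1 and 2). Mmp16, a membrane metalloproteinase, and Acta2, smooth muscle actin, followed with 6.36 and 6.28 on the log2 scale, the former 10.78 without WT replicate 1 and 5.46 without WT replicate 2. In all, 162 genes had a mean under 0.2 CPM in WT and of 2 CPM or more in D395A, and 91 of the genes tested met both limits in each library.

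The named rises also include genes that overlap a gene on the opposite strand and are uncertain for that reason. Cd247 inside Pou2f1, Gm16982 beside Ap2a2, C030034L19Rik beside Zfp704, Acat3 beside Tcp1, B3gat2 beside Smap1, Xist beside Tsix, Foxb1 beside B230323A14Rik and Scpep1os beside Scpep1 were all near 0 in WT. Foxb1, a forkhead gene of the hypothalamus, stood at 0 and 0 CPM in WT and 5.32 and 5.43 CPM in D395A, at least 138-fold higher. Xist, the RNA that coats an inactive X chromosome, stood at 0.0246 and 0 CPM in WT and 6.18 and 4.88 CPM in D395A, a ratio of 415 (73.9 to 16438). In edgeR's robust fit 4 of these genes lost their calls, Xist (adjusted p = 0.077), Cd247 (0.070), Gm16982 (0.16) and Scpep1os (0.059). Tsix is its antisense partner, so reads of the pair cannot be told apart here.

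The steepest falls left under 1 CPM in both D395A libraries. Pramel6, a Prame family gene active in ES cells, and Samd7, a Polycomb-associated gene of photoreceptors, stood at 7.10 and 6.59 CPM in WT and 0 and 0 CPM in D395A and at 5.41 and 5.37 CPM in WT and 0 and 0 CPM in D395A, at least 136-fold and 107-fold lower. Usp26, an X-linked deubiquitinase of germ cells, fell from 59.4 and 59.0 to 0.170 and 0.444 CPM (-7.45 ± 0.18), and the X-linked 1700013H16Rik fell from 23.3 and 21.9 to 0.0426 and 0.166 CPM (-7.55 ± 0.24). Without D395A replicate 2 the values of this pair were -8.41 and -8.94. Clgn, a testis chaperone on chromosome 8, fell from 17.1 and 16.4 to 0.256 and 0.0555 CPM (-6.92 ± 0.29, or -8.15 without D395A replicate 1 and -6.02 without replicate 2). Ccdc172, a coiled-coil gene, had 3 counts in D395A and was 152-fold lower (interval 51.8 to 740.0). Zfy1, a zinc finger gene of the Y chromosome, fell from 9.71 and 10.9 to 0.170 and 0.166 CPM (-5.90 ± 0.25), as did most Y genes tested. In the reverse direction to the count above, 67 genes had a mean of 2 CPM or more in WT and under 0.2 CPM in D395A, and 45 met both limits in each library.

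Naive pluripotency genes, which hold ES cells in the state of the preimplantation epiblast, were mostly lower in D395A: 18 of 23 measured fell and 5 rose (free 4 and 15 of 19). The median was -0.86, and -0.88 outside chromosomes 8, 11 and Y. Tcl1, a coactivator of AKT, and Tbx3, a T-box repressor of differentiation, fell from 58.4 and 61.8 to 3.28 and 3.49 CPM and from 283 and 282 to 17.7 and 19.2 CPM. Nanog fell from 931 and 909.9 to 441 and 470.3 CPM, Klf4 from 249 and 259.6 to 143 and 137 CPM and Esrrb from 686 and 670.5 to 455 and 534 CPM. Both mutant libraries lay below both WT libraries in each. Klf2, on chromosome 8, went the other way and rose from 262 and 253 to 514 and 490.4 CPM (0.96 ± 0.07, adjusted p = 8.4e-08), as did Gbx2, a LIF target, from 11.3 and 10.8 to 51.3 and 48.9 CPM (2.18 ± 0.09). Counts of 5 and 18 were also found without each of the 4 libraries in turn. Tbx3 and Gbx2 have exons inside an opposite-strand gene.

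Core pluripotency genes gave 6 rises and 9 falls among 17 measured (free 4 and 8 of 13). Tdgf1 (Cripto, the coreceptor of Nodal) fell from 761 and 788 to 52.0 and 59.8 CPM (-3.79 ± 0.08). L1td1, an RNA-binding protein derived from a LINE element, fell from 192 and 204 to 34.5 and 42.8 CPM (-2.35 ± 0.09), and the chromatin factor Utf1 fell from 69.9 and 67.0 to 16.5 and 18.2 CPM (-1.97 ± 0.07). Pou5f1, the gene of OCT4, fell from 461 and 493 to 335 and 310.5 CPM (-0.57 ± 0.07), whereas Sox2 stood at 280.0 and 302 CPM in WT and 311 and 286 CPM in D395A, with overlapping groups (adjusted p = 0.7). Myc stood at 2.43 and 2.37 CPM in WT and 2.81 and 2.94 CPM in D395A (adjusted p = 0.42). Pou5f1 has exons inside an opposite-strand gene.

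Formative and primed state genes, which mark the passage from naive cells to epiblast, were split. Of 18 measured 11 rose and 4 fell (median 0.53, free 6 and 2 of 9), but the rises and falls did not follow 1 state. The SOX factor Sox3 rose from 2.56 and 3.53 to 22.7 and 19.5 CPM (2.80 ± 0.16), Sall2, a zinc finger factor of primed cells, rose from 5.95 and 5.57 to 43.5 and 46.9 CPM (2.97 ± 0.09), and N-cadherin (Cdh2) rose from 2.999 and 2.84 to 30.3 and 29.8 CPM (3.36 ± 0.11). Dnmt3b, a de novo DNA methyltransferase, rose from 32.0 and 30.9 to 52.1 and 59.2 CPM (0.83 ± 0.07). Otx2, the factor that starts the formative state, fell from 5.65 and 6.09 to 1.32 and 0.166 CPM (-3.13 ± 0.50, or -5.11 without D395A replicate 1 and -2.15 without replicate 2), and Grhl2, an epithelial factor, fell from 13.2 and 13.8 to 2.26 and 1.52 CPM (-2.87 ± 0.17). The groups did not overlap in any of these 6 genes, and Fgf5 did not pass the filter. Opposite-strand genes overlap Dnmt3b, Otx2 and Grhl2.

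The 2-cell-like state, a rare state of ES cells that resembles the cleaving embryo, was represented by 11 measured genes, of which 10 rose and 1 fell (free 10 and 1 of 11). All 10 are Zscan4 or Usp17 copies or Gm8300, and the copies form near-identical families whose single values are uncertain. Zscan4d rose from 0.492 and 1.05 to 16.3 and 13.8 CPM (4.30 ± 0.25, or 4.91 without WT replicate 2) and Zscan4f from 0.860 and 1.07 to 12.3 and 9.54 CPM. Dux, the regulator that starts the state, Tcstv1 and Tdpoz2 had 0 counts in all 4 libraries. Calcoco2, an autophagy receptor on chromosome 11, fell from 50.6 and 43.5 to 5.45 and 4.74 CPM (-3.22 ± 0.11).

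Of 15 measured genes of the LIN28 and let-7 axis, 9 rose and 1 fell (free 3 and 0 of 6), or 2 fell without D395A replicate 2. LIN28 proteins block maturation of the let-7 microRNA. Lin28a rose from 86.1 and 75.05 to 128 and 148 CPM (0.78 ± 0.09) and Lin28b from 22.0 and 21.7 to 36.4 and 41.8 CPM (0.85 ± 0.09), Dis3l2, the nuclease that degrades the tailed precursor, rose from 38.5 and 37.2 to 62.3 and 64.7 CPM (0.75 ± 0.07), and the let-7 target Hmga2 rose from 21.9 and 19.2 to 40.6 and 46.5 CPM (1.09 ± 0.09). The exception, Igf2bp1, an m6A-binding target on chromosome 11, fell from 1249.9 and 1225 to 661 and 756 CPM (-0.80 ± 0.08). Both D395A libraries were above both WT libraries in 11 of the 15 genes, against 43.7% of all genes tested. Lin28a, Dis3l2, Hmga2 and Igf2bp1 have exons inside an opposite-strand gene.

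Wnt signalling genes were higher at several levels of the pathway. Wnt ligands bind Frizzled receptors and their coreceptors, beta-catenin then enters the nucleus, and TCF and LEF proteins bring it to target genes, whose motif core is CTTTGA. The promoters of the targets Sp5 and Lef1 are printed because both genes rose and both windows hold this core; each is the 250 bases before the start of the gene on the plus strand (RefSeq, GRCm38.p6), with the core in capitals, as CTTTGA or, on the other strand, as TCAAAG.
Sp5, chr2:70474673-70474922: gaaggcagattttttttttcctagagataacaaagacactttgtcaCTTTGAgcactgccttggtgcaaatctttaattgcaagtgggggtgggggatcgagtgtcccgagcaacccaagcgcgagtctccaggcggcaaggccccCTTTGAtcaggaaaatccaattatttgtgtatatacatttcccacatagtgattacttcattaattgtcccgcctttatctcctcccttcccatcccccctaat
Lef1, chr3:131156044-131156293: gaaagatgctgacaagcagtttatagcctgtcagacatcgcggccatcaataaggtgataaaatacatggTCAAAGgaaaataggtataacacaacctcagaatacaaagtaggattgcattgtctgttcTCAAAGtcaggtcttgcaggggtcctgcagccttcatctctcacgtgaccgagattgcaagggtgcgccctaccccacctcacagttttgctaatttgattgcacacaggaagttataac
The core occurs on either strand in 13% of the 12071 tested genes with such a window. It is in 6 of the 15 Wnt targets with a window, in 5 of the 9 called higher and in 1 of the 4 called lower. A gene counts if any of its windows holds the core, and the window with the most matches is the one printed. A match is a description of the letters and no evidence of binding.

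Of 14 measured Wnt and R-spondin ligands, 7 rose, most from near 0, and none fell with edgeR or DESeq2 (0 at an unadjusted p under 0.05, free 5 and 0 of 9). The filter kept 14 of the 23 ligand genes in the count tables, and those near 0 in WT passed only through another group. With limma-voom, in the 4 libraries alone and without D395A replicate 1, 1 ligand was called lower. Wnt8a, a ligand of the early primitive streak, stood at 0 and 0 CPM in WT and 3.83 and 4.35 CPM in D395A, at least 106-fold higher. Wnt6 rose from 0.148 and 0.193 to 3.75 and 3.02 CPM (4.29 ± 0.47) and Wnt9a from 0.615 and 0.882 to 2.34 and 1.91 CPM. The other 4 rises were of genes below 2 CPM (Wnt2b, Wnt5a, Wnt10b and Rspo3, named after their values were seen, of which Wnt5a and Rspo3 have exons inside an opposite-strand gene), and with a filter of at least 1 CPM in 2 libraries 3 ligands were called higher. Wls, the carrier that brings Wnt proteins to the cell surface, rose from 6.91 and 6.04 to 72.5 and 75.3 CPM (3.51 ± 0.08, adjusted p = 7e-12). Neither WT library reached a D395A library for any of these.

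Of 17 receptors and coreceptors, 10 rose and 2 fell (free 9 and 1 of 15). Fzd2 rose from 8.06 and 7.03 to 135 and 131 CPM (4.13 ± 0.09) although it lies on chromosome 11, Fzd7 rose from 27.4 and 27.2 to 78.0 and 83.7 CPM (1.57 ± 0.07) and Fzd1 from 2.36 and 2.29 to 8.94 and 9.12 CPM (1.96 ± 0.16). The tyrosine kinase-like receptors of noncanonical signalling were higher as well. Ror1 rose from 0.197 and 0.1102 to 3.11 and 4.38 CPM (4.57 ± 0.49), Ror2 from 48.8 and 47.4 to 116 and 126 CPM (1.33 ± 0.07) and Ptk7, a pseudokinase of planar polarity, from 126 and 122 to 386 and 404 CPM (1.67 ± 0.06). Both D395A libraries lay above both WT libraries in 11 of the 17 genes, against 43.7% of all genes tested. Inside the cell, 11 of 26 components rose and 5 fell (median 0.17, free 5 and 1 of 11). The share that rose was near the 36.3% of all genes tested, and the count of falls depended on D395A replicate 2. Bcl9l and Bcl9, which tie beta-catenin to Pygopus, rose from 31.2 and 34.0 to 84.2 and 94.0 CPM and from 65.2 and 64.2 to 124 and 138 CPM, Pygo1 rose from 4.84 and 3.94 to 10.9 and 12.2 CPM (1.40 ± 0.14), and Tnks, a tankyrase on chromosome 8 that removes AXIN, fell from 239.7 and 242 to 132 and 146 CPM (-0.79 ± 0.07). Opposite-strand overlap concerns Ptk7, Bcl9l and Tnks.

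Wnt targets moved unevenly: 13 of 23 rose and 7 fell (free 9 and 5 of 17), 8 of the 23 lie on chromosomes 8 or 11, and the median was 0.41 over all and 1.6 outside those chromosomes and Y. Sp5 rose from 15.8 and 12.9 to 509.9 and 452 CPM and Sp8, its relative, from 0.688 and 0.717 to 7.11 and 5.93 CPM (3.21 ± 0.31). Lef1 rose from 4.77 and 3.91 to 17.2 and 19.4 CPM (2.07 ± 0.14) and the receptor gene Tnfrsf19 from 28.9 and 25.8 to 110.5 and 117 CPM (2.06 ± 0.08). Cdx2, a caudal factor of trophoblast and hindgut, rose from 0.123 and 0.0551 to 3.11 and 2.72 CPM (4.95 ± 0.59, or 5.62 without WT replicate 1). In contrast T (Brachyury), the factor of primitive streak and a direct Wnt target, fell from 4.89 and 3.36 to 0.0852 and 0.222 CPM (-4.62 ± 0.51, or -5.54 without D395A replicate 2). Axin2, the feedback inhibitor on chromosome 11, stood at 55.6 and 50.7 CPM in WT and 58.8 and 66.9 CPM in D395A (adjusted p = 0.012), a call that ended without D395A replicate 2 or WT replicate 2 (0.14 and 0.15). Exons of Lef1, Tnfrsf19 and Axin2 lie inside an opposite-strand gene.

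**Figure D3:**
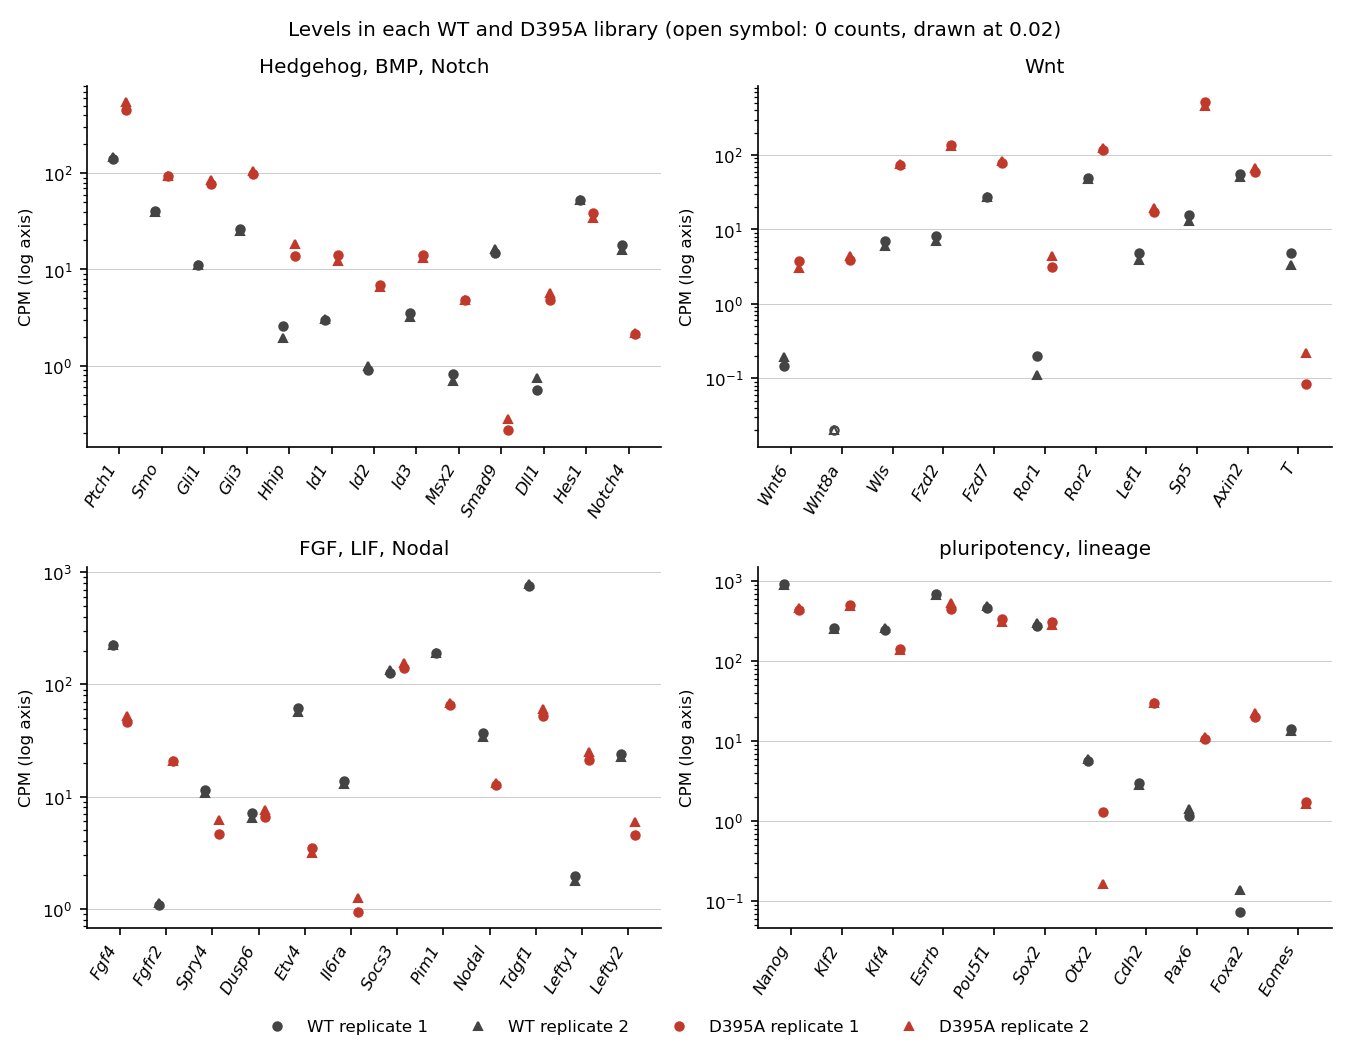
Level of each named gene in each library (CPM, log axis), WT in grey and D395A in red, circles for replicate 1 and triangles for replicate 2, open symbols for 0 counts drawn at 0.02, in 4 panels by pathway. For most genes the replicate symbols of a group lie close together and apart from the other group, as for Sp5, Gli1 and Lefty1, whereas the groups overlap for Sox2 and Dusp6.

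Hedgehog pathway genes were higher in D395A from ligand to target. Hedgehog ligands bind Patched, which then releases Smoothened, and GLI factors switch on targets that include Patched and GLI1 themselves; the pathway patterns the neural tube and limb. All 16 genes of the list were tested and 14 rose, with a median of 1.67, or 1.11 over the 10 free of opposite-strand genes, of which 8 rose. None fell with edgeR, DESeq2 or limma-voom (0 at an unadjusted p under 0.05), and without D395A replicate 2, 13 rose and 1 fell. The transcriptional readout Gli1 rose from 11.1 and 11.1 to 76.8 and 85.6 CPM (2.87 ± 0.08, adjusted p = 2.6e-11). Ptch1, receptor and target, rose from 139.6 and 149 to 454 and 544 CPM (1.79 ± 0.09), and Hhip, the decoy receptor, rose from 2.61 and 1.93 to 13.9 and 18.2 CPM (2.83 ± 0.16). Each of these 3 feedback genes was higher in both D395A libraries than in either WT library. Smo rose from 40.5 and 39.2 to 93.4 and 93.3 CPM (1.23 ± 0.06), the coreceptor gene Gas1 from 2.34 and 2.81 to 11.2 and 10.3 CPM (2.07 ± 0.15), and Gli3, mainly a repressor, from 26.2 and 24.9 to 98.0 and 106 CPM (2.0 ± 0.08). The ligand gene Shh, named with the next pair after the values were seen, stood at 0 and 0 CPM in WT and 1.62 and 1.72 CPM in D395A. The coreceptors Boc and Cdon were the members not called, at 6.05 and 6.12 CPM in WT and 6.60 and 7.21 CPM in D395A and at 27.5 and 29.2 CPM in WT and 23.9 and 29.8 CPM in D395A. Of the genes named here, Gli1, Hhip, Gas1, Gli3 and Shh have exons inside an opposite-strand gene.

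BMP pathway genes were also mostly higher. BMP ligands signal through SMAD1, SMAD5 and SMAD9 to the ID and MSX genes, and in ES cells ID proteins hold back neural differentiation. Of 26 measured, 20 rose and 4 fell (median 1.30; of 19 free of opposite-strand genes 14 rose and 4 fell). Among targets, Id1 rose from 2.999 and 3.06 to 14.2 and 12.4 CPM (2.13 ± 0.15), Id2 from 0.910 and 0.992 to 6.81 and 6.63 CPM (2.82 ± 0.23) and Id3 from 3.49 and 3.20 to 14.1 and 13.2 CPM (2.03 ± 0.14). Msx1 and Msx2, homeobox targets, rose from 0.885 and 0.689 to 3.83 and 3.77 CPM and from 0.811 and 0.689 to 4.81 and 4.77 CPM. The WT and D395A libraries did not overlap in any of these 5 genes. Of the ligands, Bmp5 had 0 counts in WT and 2.64 and 1.86 CPM in D395A (at least 55.6-fold higher), while Bmp8a fell from 2.53 and 2.23 to 0.554 and 0.499 CPM (-2.18 ± 0.31). Bmp5 has exons inside an opposite-strand gene. Smad9, an effector of the pathway, fell from 14.7 and 16.1 to 0.213 and 0.277 CPM (-5.92 ± 0.22, adjusted p = 1.8e-10), among the steepest falls in the comparison.

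Nodal and activin genes split evenly, with 7 rises and 7 falls among 19 (free 4 and 6 of 15). Nodal itself fell from 37.1 and 34.0 to 12.8 and 13.2 CPM (-1.45 ± 0.08), and so did its coreceptor Tdgf1, given above. The antagonists diverged: Lefty1 rose from 1.97 and 1.76 to 21.2 and 25.2 CPM (3.64 ± 0.14), and its neighbour Lefty2 fell from 24.2 and 22.5 to 4.56 and 5.91 CPM (-2.13 ± 0.11). Fst, follistatin, which traps activin, rose from 0.885 and 1.90 to 10.4 and 11.5 CPM (3.0 ± 0.24, or 3.63 without WT replicate 2). The convertases that cut the Nodal precursor diverged too, with Pcsk6 falling from 118 and 113 to 36.6 and 36.5 CPM (-1.66 ± 0.06) and Furin rising from 34.2 and 28.6 to 98.6 and 99.0 CPM (1.65 ± 0.08). Libraries of the groups did not overlap for these genes, of which Fst, Pcsk6 and Furin overlap an opposite-strand gene.

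Of 29 measured Notch pathway genes 18 rose and 4 fell (median 0.84, the same value over the 19 free of opposite-strand genes, of which 11 rose and 4 fell). Notch receptors are cut on binding a Delta or Jagged ligand of the next cell, and the freed domain acts with RBPJ and Mastermind proteins on HES genes. The ligand gene Dll1 rose from 0.565 and 0.744 to 4.86 and 5.68 CPM (3.01 ± 0.40). Notch4, mainly an endothelial receptor, fell from 17.9 and 15.8 to 2.13 and 2.19 CPM (-2.96 ± 0.15). Of the Mastermind coactivators, Maml3 rose from 0.541 and 0.386 to 7.16 and 7.82 CPM (4.0 ± 0.29) and Maml2 fell from 8.68 and 10.1 to 0.894 and 0.998 CPM (-3.30 ± 0.27). Dtx4, a ubiquitin ligase of receptor turnover, rose from 4.55 and 3.803 to 25.6 and 28.6 CPM (2.7 ± 0.12). Among HES genes, Hes6, which promotes neurogenesis, rose from 3.64 and 4.11 to 12.8 and 11.6 CPM (1.65 ± 0.13), while Hes1, the usual readout of the pathway, fell from 53.2 and 52.4 to 38.4 and 34.1 CPM (-0.55 ± 0.08). In every gene of the family named here both D395A libraries were on 1 side of both WT libraries, and Dll1 has exons inside an opposite-strand gene.

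Some FGF ligand genes fell and a receptor gene rose. Of 20 measured FGF ligands and receptors 3 rose, 8 fell and 9 were not called (free 2 and 6 of 13). The share that fell was near the 34.0% of all genes tested, and the share that rose was below their 36.3%. Fgf4, which activates ERK in ES cells, fell from 227 and 225 to 46.3 and 52.0 CPM (-2.20 ± 0.07), Fgf3 fell from 3.69 and 3.28 to 0.341 and 0.139 CPM (-3.94 ± 0.44, or -4.62 and -3.34 without D395A replicates 1 and 2) and Fgf10 from 7.60 and 7.17 to 0.639 and 0.527 CPM (-3.68 ± 0.24). Klb, the coreceptor beta-klotho, fell from 3.86 and 4.49 to 0.256 and 0.499 CPM (-3.39 ± 0.36, or -4.01 without D395A replicate 2). Fgfr2, the receptor of extraembryonic and epithelial cells, rose from 1.08 and 1.13 to 20.6 and 20.6 CPM (4.22 ± 0.17). The groups did not overlap in these 5 genes. The 19 ERK feedback and ETS targets showed no common direction, with 7 rises and 5 falls (free 4 and 4 of 14). Etv4 (chromosome 11) fell from 61.7 and 56.4 to 3.45 and 3.16 CPM (-4.17 ± 0.10) and Ier3 from 9.17 and 10.3 to 1.36 and 1.39 CPM (-2.82 ± 0.20), its relative Etv1 rose from 1.23 and 1.27 to 3.66 and 4.38 CPM (1.69 ± 0.29), and Spry4 fell from 11.5 and 10.8 to 4.60 and 6.16 CPM (-1.04 ± 0.16). Dusp6, the usual readout of ERK, stood at 7.20 and 6.48 CPM in WT and 6.52 and 7.51 CPM in D395A, with overlapping libraries (adjusted p = 0.87). Of 13 immediate early genes 5 rose and 4 fell (free 3 and 3 of 9); Jun rose from 3.17 and 3.42 to 15.03 and 15.4 CPM (2.21 ± 0.12) and the phosphatase gene Dusp1 fell from 24.2 and 25.7 to 9.07 and 10.1 CPM (-1.38 ± 0.10). Reads of an opposite-strand gene could enter the counts of Fgf10, Jun and Dusp1.

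LIF, the cytokine that keeps ES cells naive through STAT3, had 11 of 19 pathway genes lower and 5 higher (free 3 and 5 of 11). Il6ra, a receptor subunit of the family, fell from 13.9 and 12.9 to 0.937 and 1.25 CPM (-3.58 ± 0.19), and the STAT3 targets Pim1, a kinase, and Socs2, a feedback inhibitor, fell from 190.3 and 189.6 to 65.8 and 68.6 CPM and from 47.9 and 47.6 to 21.2 and 22.9 CPM. Jak2, a kinase of the receptor, rose from 12.2 and 14.1 to 26.8 and 28.1 CPM (1.07 ± 0.09). Socs3, the main feedback target on chromosome 11, stood at 128 and 135 CPM in WT and 141 and 155 CPM in D395A (adjusted p = 0.038), a call that ended without D395A replicate 2, WT replicate 1 or WT replicate 2 (adjusted p up to 0.29). In the Hippo pathway 12 of 23 genes rose and 8 fell (free 9 and 6 of 16). Amot, which retains YAP in the cytoplasm, rose from 3.81 and 3.11 to 23.6 and 30.001 CPM (2.95 ± 0.14), the kinase gene Lats2 rose from 2.75 and 2.67 to 16.9 and 17.3 CPM (2.65 ± 0.15), and Vgll4, a competitor of YAP, rose from 7.57 and 8.41 to 30.3 and 30.3 CPM (1.92 ± 0.09). Tead4, the partner of YAP in the blastocyst, fell from 58.4 and 58.9 to 12.1 and 14.1 CPM (-2.15 ± 0.08), while the target Ccn1 rose from 10.3 and 8.57 to 28.6 and 30.5 CPM (1.64 ± 0.11). Both libraries of 1 group lay beyond both of the other in each gene named here. An opposite-strand gene lies over exons of Il6ra and Pim1.

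Retinoic acid genes gave 12 rises and 3 falls among 20 (free 9 and 3 of 17). Stra6, the receptor that takes up retinol, rose from 1.33 and 0.965 to 27.7 and 28.1 CPM (4.59 ± 0.17). Rarb, a receptor and direct target, rose from 0.197 and 0.331 to 4.73 and 3.72 CPM (3.99 ± 0.48), Crabp2, a carrier to the nucleus, rose from 1.35 and 0.965 to 9.33 and 9.54 CPM (3.02 ± 0.23), and Stra8, the gatekeeper of meiosis, rose from 25.2 and 24.9 to 199 and 162 CPM (2.85 ± 0.09). Falls included the synthesising enzyme Aldh1a3, at 3.93 and 5.29 CPM in WT and 0 and 0.0832 CPM in D395A (3 counts in D395A, 90.8-fold lower, interval 30.8 to 442, the fitted log2 value moving from -5.73 to -10.29 with the D395A library left out), and Crabp1, a cytoplasmic carrier, from 23.8 and 26.3 to 8.31 and 9.29 CPM (-1.5 ± 0.12). Cyp26a1, which degrades retinoic acid, stood at 0.0246 and 0.138 CPM in WT and 0.426 and 0.499 CPM in D395A, a call that ended without D395A replicate 2 or WT replicate 1 (adjusted p up to 0.15). Neither group overlapped the other for these 7 genes, and Stra6 and Rarb have exons inside an opposite-strand gene.

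HOX genes, which give position along the body axis and are kept silent in ES cells by Polycomb, depended on 1 library. Of 35 tested 22 were higher and 7 lower, but 11 of the 35 were over 2-fold higher in D395A replicate 1 than in replicate 2 and 0 the reverse. Without D395A replicate 1 the counts were 7 and 8, without replicate 2 they were 23 and 4, without WT replicate 1 or 2 they were 8 and 4 or 9 and 4, and 12 were higher with limma-voom and 13 with a filter of at least 1 CPM in 2 libraries. The direction followed the paralog number. Of 24 genes of paralogs 1 to 9, 20 were higher and 1 lower (median 2.41), and of 11 genes of paralogs 10 to 13, 2 were higher and 6 lower (median -0.85). Free of opposite-strand genes, the counts were 10 and 1 of 13, and 1 and 6 of 10.

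Some HOX genes were high in both D395A libraries. Hoxa3 rose from 0.369 and 0.717 to 6.98 and 6.71 CPM (3.66 ± 0.40). Hoxa2 had 0 counts in WT and 4.86 and 3.605 CPM in D395A, at least 105-fold higher. Others were low in both. Hoxc12 fell from 5.29 and 5.26 to 0.511 and 0.166 CPM (-4.08 ± 0.35, or -4.96 and -3.36 without D395A replicates 1 and 2) and Hoxc13 from 9.02 and 8.65 to 3.88 and 4.35 CPM (-1.09 ± 0.12). Hoxc11 fell from 1.55 and 0.799 to 0.170 and 0.0555 CPM (-3.45 ± 0.70, or -4.32 and -2.76). Hoxd10, Hoxa11 and Hoxc9 rested on replicate 1, with 2.98 and 0, 2.77 and 0, and 5.24 and 0.665 CPM in D395A, and their log2 values without it were -3.09, -2.27 and -0.18. The opposite-strand caveat applies to Hoxa3 and Hoxa11.

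**Figure D4:**
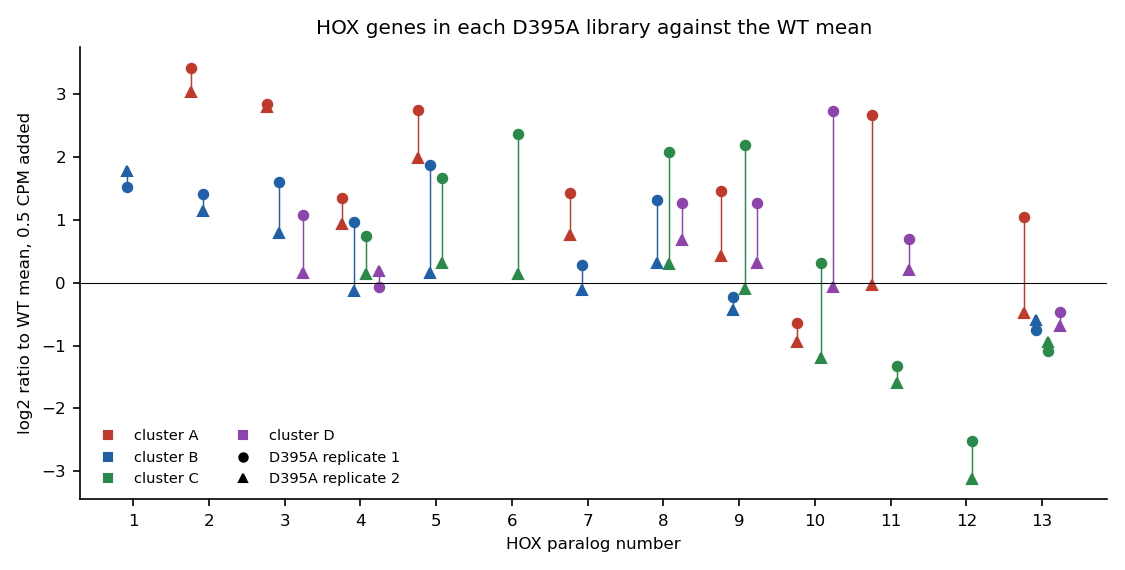
Log2 ratio of each D395A library to the WT mean (0.5 CPM added) for 34 of the 35 tested HOX genes by paralog number, coloured by cluster, circles for replicate 1 and triangles for replicate 2, joined by a line for each gene. Low paralog numbers lie mostly above 0 and high numbers mostly at or below it, and long lines, in which replicate 1 is the higher, mark the genes that rest on that library.

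Neural progenitor regulators gave 17 rises and 3 falls among 22 (median 2.66, free 10 and 3 of 14). Without D395A replicate 1, 14 rose and 2 fell. Sox11, Sox21 and Pax6, transcription factors of dividing neural cells, rose from 3.10 and 2.59 to 29.2 and 33.4 CPM, from 3.49 and 2.98 to 37.4 and 33.4 CPM and from 1.18 and 1.41 to 10.6 and 11.3 CPM. Pou3f2 (BRN2) had 3 counts in WT and 4.86 and 4.02 CPM in D395A, a ratio of 112 (37.8 to 545), and Sox9 rose from 0.246 and 0.524 to 3.15 and 3.41 CPM (3.11 ± 0.30, or 3.72 without WT replicate 2). Each of these was high in both D395A libraries. Hesx1, a repressor of the anterior forebrain, fell from 12.1 and 12.1 to 1.11 and 0.970 CPM (-3.55 ± 0.18). Genes of differentiated neurons did not share this direction, with 10 of 23 higher and 8 lower (free 6 and 5 of 14). The growth cone protein gene Gap43 rose from 0.762 and 0.524 to 5.20 and 6.13 CPM (3.13 ± 0.21) and Dpysl3, a collapsin response mediator, rose from 3.84 and 3.22 to 25.6 and 28.7 CPM (2.94 ± 0.11), while Tubb3 (chromosome 8) and Mapt (tau, chromosome 11) fell from 45.8 and 42.8 to 17.3 and 17.6 CPM and from 39.7 and 41.7 to 1.83 and 1.28 CPM, and Elavl3, a neuronal RNA-binding protein, fell from 5.24 and 3.89 to 1.15 and 1.25 CPM (-1.92 ± 0.29). Of the 6 neural markers summed above, Stmn2, which made up most of the sum, was lower and the other 5 were called higher. Exons of Sox21 and Pax6 lie inside an opposite-strand gene.

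Markers of other lineages were mixed. Of 17 mesendoderm genes 4 rose and 3 fell (free 4 and 2 of 13): beside Foxa2, the repressor Snai1 rose from 0.713 and 0.551 to 3.75 and 3.47 CPM (2.49 ± 0.22), while Eomes, a T-box factor, fell from 14.1 and 13.3 to 1.75 and 1.64 CPM (-3.02 ± 0.14) and Gsc, goosecoid, fell from 2.88 and 3.45 to 1.06 and 0.721 CPM (-1.85 ± 0.28). Of 19 extraembryonic endoderm genes 8 rose and 5 fell (free 3 and 3 of 10). The endocytic adaptor Dab2 rose from 2.90 and 3.11 to 16.5 and 18.4 CPM (2.54 ± 0.13), whereas the factors Gata4 and Hnf4a fell from 5.68 and 4.80 to 1.11 and 1.39 CPM and from 2.80 and 3.25 to 0.596 and 0.804 CPM, and the basement membrane laminin Lama1 fell from 205 and 209.6 to 28.7 and 33.4 CPM (-2.73 ± 0.08). Of 18 trophoblast genes 8 rose and 4 fell (free 5 and 3 of 13), with Cdx2, Fgfr2 and Peg10 higher and Eomes, Tead4 and the keratin gene Krt19 lower. Of 12 fibroblast genes 8 rose and 3 fell (free 5 and 3 of 9). The median, 4.27, was 3.55 with members at 0 counts set to their bounds. Tagln, a smooth muscle actin binder, rose from 0.0492 and 0.0827 to 2.77 and 2.83 CPM and Twist1 from 0.688 and 0.744 to 3.41 and 2.74 CPM (2.09 ± 0.26). In contrast, Pdgfrb fell from 22.3 and 22.2 to 7.92 and 8.51 CPM (-1.43 ± 0.09). Col1a1 (chromosome 11), the main fibroblast collagen, fell from 3.81 and 4.05 to 0.767 and 1.33 CPM (-1.86 ± 0.30). Of 9 blood and endothelial genes 3 rose and 3 fell (free 2 and 2 of 6), and Pecam1 (chromosome 11) fell from 280.2 and 281 to 34.9 and 42.9 CPM (-2.84 ± 0.09). Genes named here with an opposite-strand gene over their exons were Eomes, Dab2, Hnf4a and Tagln.

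Cell surface guidance and adhesion genes were mostly higher. Of 62 measured ephrin, semaphorin, plexin, Slit, Robo and netrin genes, which steer axons and migrating cells, 36 rose and 14 fell (26 and 12 of the 47 free of opposite-strand genes). Sema3e rose from 0.492 and 0.331 to 26.0 and 29.7 CPM (6.06 ± 0.18) and Sema3c from 0.443 and 0.358 to 6.98 and 7.35 CPM (4.14 ± 0.26), secreted semaphorins both. Efnb1, an X-linked ephrin, rose from 3.25 and 2.26 to 30.2 and 36.0 CPM (3.58 ± 0.14), and Robo4, the endothelial Slit receptor, fell from 2.48 and 2.65 to 0.170 and 0.139 CPM (-4.05 ± 0.40). Both D395A libraries lay above both WT libraries in 39 of the 62, against 43.7% of all genes tested. Of 32 measured protocadherins 23 rose and 0 fell with edgeR (1 was lower at an unadjusted p under 0.05) or the DESeq2 Wald test (free 13 and 0 of 18). The filter kept these 32 of the 70 protocadherins in the count tables, and those near 0 in WT passed only through another group. With limma-voom, and in edgeR with DESeq2 size factors, the robust fit, the 4 libraries alone, and without KO replicate 2, Rn45s, chromosomes 8, 11 and Y or genes that overlap an opposite-strand gene, 1 was called lower. The X-linked Pcdh19 rose from 5.02 and 5.51 to 15.9 and 16.7 CPM (1.63 ± 0.15), and clustered genes such as Pcdhgb1 and Pcdhga5, which share their constant exons and so their reads are uncertain, rose from 0.959 and 0.799 to 3.58 and 4.21 CPM and from 0.664 and 0.937 to 2.98 and 3.24 CPM. Pcdh19 has exons inside an opposite-strand gene.

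Cadherin and epithelial-mesenchymal genes gave 16 rises and 9 falls among 30 (free 10 and 7 of 19). E-cadherin (Cdh1, chromosome 8) fell from 1040.1 and 1029 to 607 and 687 CPM (-0.68 ± 0.07) while N-cadherin rose, as given above, and Cdh6, a cadherin of neural crest and kidney, rose from 0.0492 and 0.0827 to 3.02 and 3.63 CPM (5.60 ± 0.56). Zeb2, a repressor of E-cadherin, rose from 1.06 and 1.52 to 25.04 and 24.95 CPM (4.29 ± 0.30), and the intermediate filament gene Vim, a mesenchymal marker, fell from 141 and 142 to 102 and 111 CPM (-0.41 ± 0.07). The epithelial keratin Krt19 (chromosome 11) fell from 10.6 and 10.5 to 0.511 and 0.444 CPM (-4.47 ± 0.26). Vim and Cdh2, both mesenchymal markers, thus lay in opposite directions, each with non-overlapping groups. Zeb2 has exons inside an opposite-strand gene. Of 33 collagen genes 17 rose and 7 fell (free 13 and 7 of 24), or 10 rose with the filter of at least 1 CPM and 4 fell without WT replicate 1. Col5a2, a fibrillar collagen, rose from 0.860 and 1.27 to 9.24 and 10.01 CPM (3.18 ± 0.22), and Col2a1 and Col11a1, of cartilage and notochord, rose from 2.41 and 1.57 to 8.69 and 9.18 CPM and from 1.40 and 1.41 to 5.37 and 5.24 CPM, while Col13a1, a transmembrane collagen, fell from 4.28 and 5.62 to 0.511 and 0.471 CPM (-3.33 ± 0.36). Laminins and integrins split 9 to 10 among 27 (free 5 and 8 of 18). Itgb5 rose from 16.6 and 17.1 to 68.0 and 75.2 CPM (2.09 ± 0.07) and Itgb3 (chromosome 11) fell from 7.89 and 8.24 to 1.11 and 0.970 CPM (-2.97 ± 0.19), both partners of the integrin alpha V chain.

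Ion channel and receptor genes rested in part on D395A replicate 1. Of 110 measured channel, glutamate and GABA receptor genes 43 were higher and 22 lower (free 28 and 12 of 66), and without that library 28 and 23. The AMPA receptor Gria4 rose from 0.172 and 0.138 to 4.60 and 2.86 CPM (4.54 ± 0.61), in both libraries. Gria2 stood at 0.0246 and 0.0551 CPM in WT and 4.34 and 0.0277 CPM in D395A, and its log2 fold change without replicate 1 was -0.45. Kcnk12, a potassium leak channel, stood at 0.0738 and 0.1102 CPM in WT and 4.86 and 0.194 CPM in D395A, and its call ended without replicate 1 (log2 value 1.06, adjusted p = 0.36). Replicate 1 alone was high for Gria2 and Kcnk12.

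Germline genes were lower. Of 33 measured germline and meiosis genes 22 fell and 5 rose (median -1.35, and -1.33 over 28 free of opposite-strand genes, of which 4 rose and 19 fell). The cohesin of meiosis Smc1b fell from 46.0 and 53.4 to 0.937 and 0.693 CPM (-5.97 ± 0.15), the axis protein gene Hormad1 fell from 33.0 and 37.4 to 1.92 and 1.77 CPM (-4.26 ± 0.13) and Hormad2 (chromosome 11) from 28.5 and 29.8 to 0.937 and 0.527 CPM. Dazl, an RNA-binding protein of germ cells, fell from 135 and 148 to 12.5 and 10.3 CPM (-3.65 ± 0.10) and Asz1, of the piRNA pathway, from 3.49 and 3.996 to 0.341 and 0.166 CPM (-3.94 ± 0.44). Both D395A libraries stood far under both WT libraries in each. Stra8, given with the retinoic acid genes, was the largest of the 5 rises. In the multicopy families Xlr, Magea, Mageb, Rhox and Pramel 28 of 32 measured genes fell (free 0 and 24 of 28) and none rose with edgeR, DESeq2 or limma-voom (0 at an unadjusted p under 0.05), and 18 fell with the filter of at least 1 CPM in 2 libraries. The median was -5.10, or -4.31 with genes at 0 counts set to their bounds. The filter kept 32 of the 61 genes of these families in the count tables. Members near 0 in D395A passed only through another group, so the split of directions is partly set by the filter. Xlr5a and Xlr5b, X-linked, stood at 11.9 and 12.9 CPM in WT and 0 and 0 CPM in D395A and at 7.01 and 7.22 CPM in WT and 0 and 0 CPM in D395A, at least 246-fold and 141-fold lower. Both have exons inside an opposite-strand gene, and copies of these families are nearly identical, so single values are uncertain.

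Imprinted genes, expressed from 1 parental copy, were followed in 2 lists. Of 18 maternally expressed genes 12 rose and 3 fell, and of 27 paternally expressed genes 13 rose and 6 fell. At the H19 and Igf2 locus, where the parental copies share enhancers, H19 rose from 0.762 and 1.02 to 32.8 and 35.2 CPM (5.26 ± 0.14) and Igf2 from 0.197 and 0.358 to 8.26 and 11.6 CPM (5.18 ± 0.28). The neighbours Peg10 and Sgce rose from 52.1 and 54.7 to 521 and 556 CPM and from 4.72 and 5.18 to 51.3 and 51.5 CPM. Cdkn1c, a growth inhibitor, rose from 1.11 and 0.854 to 3.41 and 4.30 CPM (1.98 ± 0.22), and Gnas, the stimulatory G protein, rose from 104 and 103 to 282 and 297 CPM (1.48 ± 0.07). At the Dlk1 and Dio3 locus Meg3 fell from 55.9 and 59.1 to 45.3 and 44.4 CPM (-0.36 ± 0.07). Sfmbt2 and Slc38a4, whose imprints rest on histone marks in part, fell from 97.8 and 99.7 to 6.05 and 6.02 CPM and from 296 and 309.8 to 37.4 and 38.8 CPM, and Hymai fell from 8.73 and 9.67 to 1.36 and 1.08 CPM (-2.93 ± 0.22). All of these lay outside the range of the other group. Imprinted loci are dense in antisense RNAs, H19, Igf2, Cdkn1c, Gnas, Meg3, Sfmbt2 and Hymai have exons inside one or another opposite-strand gene, and 8 of the 18 and 11 of the 27 genes are free of an opposite-strand gene, of which 5 and 5 rose and 1 and 2 fell.

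DNA methylation and chromatin genes moved in both directions. Of 17 DNA methylation genes 8 rose and 8 fell (free 5 and 5 of 10). Tet2, which oxidises methylcytosine, fell from 356 and 370.4 to 80.5 and 91.2 CPM (-2.08 ± 0.08), and Dnmt3l, the cofactor of de novo methylation, fell from 10.7 and 11.8 to 1.62 and 1.80 CPM (-2.7 ± 0.15). Dppa3 (Stella), which restrains UHRF1, rose from 25.2 and 27.6 to 83.6 and 69.0 CPM (1.53 ± 0.09), and Uhrf2 rose from 48.7 and 51.4 to 139.6 and 144 CPM (1.5 ± 0.07). Of 32 Polycomb genes 9 rose and 16 fell (free 8 and 7 of 19), with 7 on chromosomes 8 or 11. Cbx7, the main chromobox subunit of ES cells, fell from 105 and 109 to 21.9 and 21.8 CPM (-2.29 ± 0.07), Phc2 rose from 23.0 and 20.8 to 78.8 and 81.5 CPM (1.87 ± 0.07), and the catalytic subunit gene Ezh2 fell from 251 and 247 to 144 and 149 CPM (-0.77 ± 0.06). Suz12 (chromosome 11), the core scaffold, fell from 579.6 and 596 to 189.6 and 195 CPM (-1.61 ± 0.06). Of 23 heterochromatin genes 9 rose and 11 fell (free 5 and 5 of 12): Suv39h1, an H3K9 methyltransferase, rose from 26.5 and 26.8 to 70.0 and 74.3 CPM (1.44 ± 0.07), the remodeller Hells fell from 298 and 299.9 to 148 and 146 CPM (-1.03 ± 0.06) and Trim28, the corepressor of zinc finger proteins, fell from 1029.9 and 968 to 716 and 768 CPM (-0.43 ± 0.07). Setdb1, its partner methyltransferase, stood at 191 and 185 CPM in WT and 180.2 and 199 CPM in D395A (adjusted p = 0.88). Opposite-strand genes overlap exons of Tet2, Dnmt3l, Cbx7, Ezh2, Suz12, Suv39h1 and Setdb1.

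Glucose metabolism genes were lower across the pathway. HIF1 binds a core of ACGTG or GCGTG at genes of glycolysis and hypoxia, and the promoter of Ldha, lactate dehydrogenase A, is printed because the gene fell and its window holds several such cores (capitals, either strand; the palindrome CACGTG, which MYC-type factors also bind, counts once on each strand, so the window has 5 matches).
Ldha, chr7:46845554-46845803: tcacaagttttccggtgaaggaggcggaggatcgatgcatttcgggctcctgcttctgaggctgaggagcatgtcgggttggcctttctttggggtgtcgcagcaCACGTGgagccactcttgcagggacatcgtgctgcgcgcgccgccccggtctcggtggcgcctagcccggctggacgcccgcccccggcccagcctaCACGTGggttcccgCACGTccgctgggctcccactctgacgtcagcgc
The window is the 250 bases before the start on the plus strand (RefSeq, GRCm38.p6). Such a core was in 59.0% of the 12071 tested genes with a window, where any window of a gene could hold it. It was in 39 of 44 glycolysis and hypoxia genes with a window, in 30 of 34 called lower and in 3 of 3 called higher. The motif is short and common, and a match is no evidence of binding.

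Of 26 glucose transport and glycolysis genes 20 fell and 3 rose (median -0.63, free 2 and 13 of 18). Ldha fell from 503 and 528 to 178 and 183 CPM, and Slc16a3 (chromosome 11), which exports lactate, fell from 177 and 202 to 16.2 and 22.4 CPM (-3.27 ± 0.12). Among the enzymes, Pfkp fell from 307 and 333 to 68.0 and 76.1 CPM, Pgk1 from 447 and 473 to 210.4 and 218 CPM and the regulator Pfkfb3 from 36.9 and 38.2 to 16.4 and 16.4 CPM. The transporter gene Slc2a1 (GLUT1) stood at 466 and 495 CPM in WT and 384 and 423 CPM in D395A (adjusted p = 0.0062, or 0.1 without WT replicate 2, which ended the call). Of 25 hypoxia response genes 21 fell and none rose with edgeR, DESeq2 or limma-voom (0 at an unadjusted p under 0.05), nor without any of the 4 libraries. All 15 of those free of opposite-strand genes fell. Ak4, a mitochondrial adenylate kinase, fell from 336 and 315 to 37.1 and 36.8 CPM (-3.14 ± 0.07), and Vegfa fell from 106 and 111 to 44.2 and 42.8 CPM (-1.31 ± 0.08). P4ha2 (chromosome 11), a collagen hydroxylase, fell from 12.4 and 14.9 to 4.26 and 4.82 CPM (-1.58 ± 0.14). D395A libraries lay below WT libraries in each of these, and Pfkp and Slc2a1 have exons inside an opposite-strand gene.

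Stress pathways were mostly lower at the level of single genes. Of 35 integrated stress response genes 22 fell and 5 rose (free 2 and 13 of 22). Atf4, the factor that drives them, stood at 378 and 360.0 CPM in WT and 395.4 and 419.5 CPM in D395A (adjusted p = 0.064). It was called higher in 6 of 19 alternatives (adjusted p 0.0080 to 0.37 over all), among them the DESeq2 Wald test (0.035) and the omission of D395A replicate 1 (0.0080). Nupr1, a stress coactivator, fell from 54.5 and 63.6 to 20.7 and 18.9 CPM (-1.58 ± 0.09), Atf3, a feedback factor, fell from 9.88 and 10.8 to 4.43 and 4.27 CPM (-1.25 ± 0.17), and Atf5, which overlaps an opposite-strand gene, rose from 8.60 and 10.4 to 43.3 and 43.5 CPM (2.20 ± 0.11). Of 21 unfolded protein response genes 13 fell and 4 rose (free 2 and 9 of 13), with a median of -0.39 over all and -0.13 outside chromosomes 8, 11 and Y. Sdf2l1, a chaperone cofactor, fell from 18.1 and 20.9 to 8.77 and 7.60 CPM (-1.26 ± 0.11) and Sel1l, of the degradation complex, rose from 63.8 and 62.7 to 96.6 and 112 CPM (0.72 ± 0.07). In contrast, 19 of 37 sterol and fatty acid synthesis genes rose and 7 fell (free 13 and 5 of 26). Sc5d, a late sterol enzyme, rose from 45.7 and 45.1 to 78.8 and 87.8 CPM (0.88 ± 0.07). Of 31 autophagy and lysosome genes 7 rose and 14 fell (free 5 and 7 of 19), but 12 of them lie on chromosomes 8 or 11. Mitf, a regulator of lysosomal genes, fell from 100.1 and 97.4 to 22.7 and 24.7 CPM (-2.05 ± 0.07) and the starter kinase Ulk1 fell from 362 and 357 to 193 and 217 CPM (-0.81 ± 0.07).

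Genes of the p53 pathway and its targets gave 22 rises and 5 falls among 32 (median 0.56, free 19 and 4 of 26). Trp53 itself (chromosome 11) fell from 364 and 362 to 177 and 199 CPM (-0.95 ± 0.07) and its inhibitor Mdm4 fell from 322 and 329.6 to 116 and 134 CPM (-1.38 ± 0.08). The cell cycle inhibitor Cdkn1a (p21) rose from 164 and 157 to 408 and 403 CPM (1.34 ± 0.06), Perp, a desmosomal effector, rose from 7.69 and 8.74 to 32.6 and 30.5 CPM (1.94 ± 0.09), and Phlda3, an inhibitor of AKT, rose from 17.9 and 15.3 to 58.4 and 51.3 CPM (1.72 ± 0.09). Of 15 BCL2 family genes 9 rose and 2 fell (free 6 and 1 of 11). The survival genes Bcl2l1 and Bcl2l2 rose from 35.7 and 33.5 to 76.1 and 76.4 CPM and from 13.8 and 15.7 to 26.6 and 24.5 CPM, and the killer BH3-only genes went both ways, with Bbc3 (PUMA) rising from 10.6 and 13.4 to 17.4 and 16.2 CPM (0.49 ± 0.11) and Hrk falling from 4.499 and 5.40 to 0.511 and 0.2495 CPM (-3.76 ± 0.40). WT and D395A libraries did not overlap in these genes. Cdkn1a has exons inside an opposite-strand gene.

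Cell cycle genes differed by phase. Of 26 genes of G1 control 9 rose and 9 fell (free 5 and 3 of 12). Ccnd2, cyclin D2, rose from 1.40 and 1.57 to 68.2 and 90.3 CPM (5.74 ± 0.16, adjusted p = 2.4e-11), whereas Ccnd1 fell from 195 and 192 to 137 and 157 CPM (-0.40 ± 0.08). Mitotic genes numbered 18 falls and 1 rise among 21 (free 1 and 12 of 14) (median -0.51, and -0.52 outside chromosomes 8, 11 and Y). Ccnb2, cyclin B2, fell from 162 and 161 to 90.6 and 95.8 CPM (-0.79 ± 0.06), the checkpoint kinase Bub1 fell from 188 and 198 to 109.7 and 123 CPM (-0.73 ± 0.07) and Cenpf, of the kinetochore, fell from 253 and 264 to 158 and 156 CPM (-0.72 ± 0.07). Top2a (chromosome 11) fell from 1337 and 1356 to 491 and 549 CPM (-1.37 ± 0.07). Of 13 MYC and MAX network genes 4 rose and 5 fell (free 2 and 3 of 7): Mycn, the abundant MYC of ES cells, rose from 85.9 and 89.9 to 119 and 129 CPM (0.50 ± 0.07), and Mga, a repressor of germline genes, fell from 669.5 and 684 to 421 and 504 CPM (-0.55 ± 0.08). Of 27 interferon-stimulated and RNA-sensing genes 12 rose and 9 fell (free 9 and 6 of 20), also within the OAS family, where Oas1a fell from 21.3 and 18.4 to 1.62 and 2.11 CPM (-3.38 ± 0.15) and Oasl2 rose from 0.270 and 0.193 to 2.56 and 2.47 CPM (3.41 ± 0.56). In none of the genes named here did the groups overlap, and Ccnd2 and Ccnd1 have exons inside an opposite-strand gene.

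Subunit genes of large complexes differed from complex to complex. Of 45 proteasome subunit and chaperone genes 33 fell and 4 rose (free 1 and 26 of 32) (median -0.55, and -0.41 outside chromosomes 8, 11 and Y); without D395A replicate 1, WT replicate 1 or WT replicate 2, 1 rose. Psmg1, an assembly chaperone, fell from 65.7 and 61.5 to 25.9 and 24.9 CPM (-1.33 ± 0.07), and Psmb3 (chromosome 11), of the core, fell from 266 and 253 to 124 and 114 CPM. Of 82 cytosolic ribosomal protein genes 46 rose and 6 fell (free 34 and 4 of 59), but these small changes depended on the libraries: 42 rose and 13 fell without D395A replicate 1, 63 and 5 without D395A replicate 2, 30 and 4 without WT replicate 1 and 29 and 4 without its replicate 2. Rps21 rose from 122 and 122 to 267 and 218 CPM (0.99 ± 0.09) and Rpl41 from 551 and 542 to 1058 and 828 CPM (0.79 ± 0.10), each higher in replicate 1. Mitochondrial ribosomal proteins (30 of 76 higher, 27 lower, free 16 and 17 of 44) and nuclear genes of the respiratory chain (28 of 77 higher, 25 lower, free 20 and 18 of 53) had shares close to those of all genes. Mrpl16 rose from 22.7 and 23.2 to 50.8 and 55.0 CPM (1.21 ± 0.07), and Cox6b2, a testis form of a cytochrome oxidase subunit, rose from 20.9 and 20.04 to 47.5 and 46.2 CPM (1.19 ± 0.07).

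Replication-dependent histone genes, whose mRNAs end in a stem-loop and carry no poly(A) tail, gave 43 rises and 6 falls among 59 (median 0.59; 33 and 3 of 41 free of opposite-strand genes). Hist1h2ae rose from 71.2 and 77.5 to 203 and 142 CPM (1.21 ± 0.16) and Hist1h2an from 18.6 and 17.7 to 70.2 and 40.8 CPM (1.59 ± 0.22), both most in replicate 1. The summed level of the list was 11998 and 12394 CPM in WT and 20127 and 15319 CPM in D395A, so replicate 1 was highest there too. The 3 testis variants Hist1h2ba, Hist1h2aa and Hist1h1t fell, Hist1h2ba from 8.21 and 9.95 to 1.36 and 1.39 CPM (-2.72 ± 0.22). Histone genes are near-identical copies, so single values are uncertain, and Hist1h2ae and Hist1h2an and Hist1h2aa also have exons inside an opposite-strand gene. Of 25 snoRNA host and nuclear long noncoding RNAs 7 rose and 7 fell (free 2 and 5 of 13); Neat1, the RNA of paraspeckles, rose from 135 and 139 to 194 and 182 CPM (0.46 ± 0.09) and Snhg11 fell from 38.9 and 43.0 to 12.9 and 14.9 CPM (-1.55 ± 0.10). Of 367 Zfp-named zinc finger genes 139 rose and 113 fell (free 97 and 84 of 264), near the background, with rises led by Zfp503 (from 0.885 and 0.799 to 21.3 and 19.9 CPM), a repressor of the developing limb and striatum, and Zfp629 (from 2.46 and 2.51 to 40.5 and 42.2 CPM).

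Fold changes also followed gene structure. m6A is laid down mainly in long internal exons and near the stop codon, in last exons, and less where exon junctions are dense, so genes were divided into 5 equal bins by exons per kb of transcript (protein-coding genes free of opposite-strand genes and outside chromosomes 8, 11 and Y, 7976 genes). The median log2 fold change ran 0.42, 0.23, 0.06, -0.01 and -0.18 from the bin with the fewest exons per kb to the bin with the most. The share called higher went from 52.4% to 24.6% and the share called lower from 20.7% to 43.8%. Each D395A library showed it alone: medians of the lowest and highest bin were 0.36 and -0.18 for replicate 1 and 0.32 and -0.17 for replicate 2, while medians of WT replicate 1 over WT replicate 2 stayed within 0.01 of 0. Across genes, which are not independent replicates and share the same 4 libraries, Spearman's rho was -0.23, and 0.01 for WT replicate 1 over WT replicate 2.

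By exon density the order was also seen without weakly counted genes: among the 4901 genes with a mean of at least 10 CPM, the bins ran from 0.28 to -0.17, with rho -0.23. By length of the last exon the medians were -0.12, 0.08, 0.11, 0.12 and 0.22 from the shortest to the longest bin. At a mean of at least 10 CPM they were -0.06, 0.06, 0.05, 0.04 and 0.12, no longer in order between the outer bins, with rho 0.09 against -0.09 for WT replicate 1 over WT replicate 2. Genes with a single exon were higher more often: of 270, 151 (55.9%) were called higher and 42 (15.6%) lower, with a median of 0.58. Of 7706 genes with several exons 38.4% were higher and 33.0% lower (median 0.06). Replication-dependent histone genes, of which 33 rose and 3 fell among 41 free, were not taken out of these classes. Their part in the difference and the single libraries were not examined here. Exons per kb, exon number and transcript length are related measures, and median levels rose with exon density from 10.7 to 21.2 CPM between the outer bins; their part in the order was not tested.

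**Figure D5:**
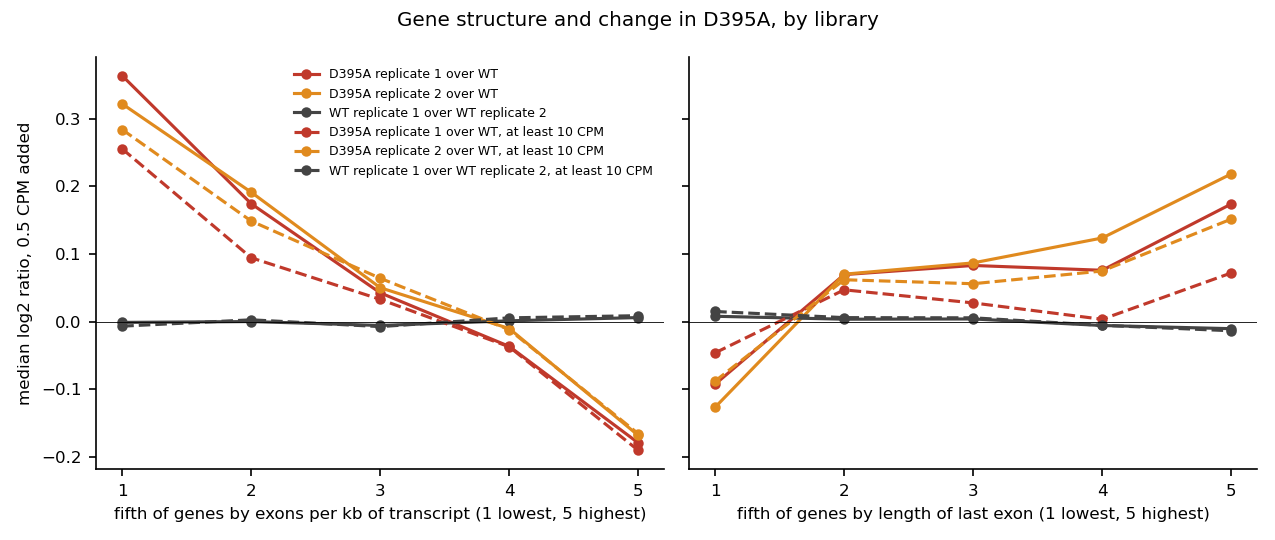
Median log2 ratio (0.5 CPM added) in bins of protein-coding genes by exons per kb of transcript (left) and by length of the last exon (right), for each D395A library over the WT mean and for WT replicate 1 over WT replicate 2; dashed lines use only genes with a mean of at least 10 CPM. Both D395A lines fall with exon density, from 0.36 and 0.32 to -0.18 and -0.17, while the WT line stays within 0.01 of 0 in the left panel's solid line.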

How the data were processed

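RNA was counted per gene in 4 libraries (2 WT, 2 METTL3 D395A); 2 METTL3 knockout libraries entered only the shared estimate of the spread. The authors deposited raw HTSeq counts with 24984 symbols a library. Per the submitters' processing notes, Trimmomatic 0.36, STAR 2.7, HTSeq 0.11.2 and the build mm10 were used; for the annotation release and the strand setting of counting, the entry is "not given in the sources used here". The summary lines of HTSeq, 36.1% and 36.1% of the total in WT and 44.2% and 40.4% in D395A, stayed out of library sizes and tests. A single count equalled 0.0246 CPM in WT replicate 1 and 0.0426 CPM in D395A replicate 1, the deepest and shallowest of the 4 libraries, so replicate 1 of the mutant is the least precise.

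Counts were tested with edgeR 4.0.16 (R 4.3.3): filterByExpr, TMM scaling, quasi-likelihood fit of all 6 libraries without covariates (3 residual degrees of freedom), contrast D395A minus WT, Benjamini-Hochberg over 15663 genes, threshold 0.05. The biological coefficient of variation was 6.00%. The fit was also run on counts simulated from its own estimates of the spread. That run cannot show whether those estimates hold for these libraries. Within groups, chi-square per degree of freedom over genes with a mean count of at least 20 was 3.34 in WT and 12.4 in D395A, so no library was a repeat of another. Replicate numbers did not pair the libraries. Positions, exons and the opposite-strand overlaps come from GENCODE M21 (GRCm38), in which 97.89% of symbols were found, and promoters from RefSeq (GRCm38.p6).

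The members and the 65 gene lists were chosen with earlier results of these data known. Lists are described by counts and medians beside those of all genes, with no test of a list; 1 list, of mitochondrially encoded genes, found no member. Genes named are the 12 largest rises and falls (called, at least 5 CPM in the higher group, groups apart, no more than 2-fold within it), repeated, as chosen after seeing the data, without genes that overlap an opposite-strand gene, up to 6 called members of each list by size with at least 2 CPM, and a fixed set given whether called or not. Where a group held 0 counts, folds are lower bounds against 3 counts over the group (0.0390 CPM in WT, 0.0504 CPM in D395A); with few counts, ratios have exact 95% intervals that cover counting error only. Alternatives were DESeq2 1.42.0, limma-voom (limma 3.58.1), other scalings and filters, a robust fit, a replicate block, the 4 libraries alone and omission of libraries, of Rn45s, of chromosomes 8, 11 and Y and, chosen after seeing the data, of genes that overlap an opposite-strand gene. A few genes that this rule names are not reported here.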

Additional observations from a re-analysis of the deposited data

Results flagged for a closer look

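Reads that aligned outside annotated genes were a larger share of all reads in the mutant libraries. The share was 30.2% in both WT libraries, 37.3% in D395A replicate 1 and 33.8% in D395A replicate 2, so both mutant libraries lay above the controls. These reads entered no comparison of genes. The share was highest in the library that also held 180 genes over 2-fold above the other D395A library and the higher opposite-strand share (3.18% against 2.43%). Their part in the gene results was not tested.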

How the results depend on the processing

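Of the alternatives named in the methods, 17 were planned and 2 were chosen after seeing the data. Under the planned ones, the count of genes called (11011 as reported) ran from 9398 to 11420 and the count at least 2-fold (4545) from 3734 to 4858, and without each of the 6 libraries in turn from 9398 to 11364 and from 4066 to 4840. The share of calls that were higher stayed between 50.4% and 51.9%, and was 49.8% without genes whose exons lie inside an opposite-strand gene. That setting, in which 9864 genes were tested, gave 7152 called and 2930 at least 2-fold, fewer by construction. Replicate numbers did not pair the libraries: deviations from the group means correlated at -0.0026 between WT and D395A, and with the replicate block 10843 genes were called and 4394 at least 2-fold.

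Of 436 genes followed through the settings, between 407 and 436 kept direction and side of the threshold in each setting that retested all of them. Values that changed sign were those of genes that were not called or rested on few counts or 1 library. Across the omissions of 1 library, log2 fold changes ran from -0.072 to 0.14 for Dusp6, -0.45 to 6.67 for Gria2, -2.27 to 8.52 for Hoxa11, -2.98 to 2.15 for Hoxa13, -0.33 to 1.70 for Hoxb4 and -0.47 to 0.80 for Hoxb7. They ran from -2.19 to 0.41 for Hoxc10, -0.18 to 2.79 for Hoxc9, -3.09 to 8.59 for Hoxd10, -0.60 to 2.65 for Hoxd4, -0.063 to 0.082 for Setdb1 and -0.022 to 0.096 for Sox2. The lowest value came without D395A replicate 1 for Gria2, Hoxa11, Hoxa13, Hoxb4, Hoxb7, Hoxc10, Hoxc9, Hoxd10 and Sox2. Without chromosomes 8, 11 and Y, Dusp6, Setdb1 and Sox2 stood at -0.026, -0.055 and -0.030. Hoxa13 was -0.45 with limma-voom, and Setdb1 was -0.0031 with the DESeq2 Wald test, -0.0032 with DESeq2 size factors, -0.0034 without a filter and without Rn45s, and -0.0020 in the 4 libraries alone. The causes were not tested.

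Precision is limited by 2 libraries a group, by the depth of D395A replicate 1 for genes under about 2 CPM, by the unknown strand setting for genes that overlap another gene, and by a single mutant line.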
